A study of Mus musculus with 4 samples.

Results

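The genes described here are 49 genes of DNA double-strand break repair, the Fanconi anaemia pathway and the replication stress checkpoint. They were picked by name from the 23361 genes of a table of RNA abundance in 4 libraries of cultured mouse mammary tumour cells. All 49 were found in the table under the names used here, and all 49 passed the filter on low counts, with 88 to 11399 fragments per gene and library.

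These genes act in linked pathways. A broken chromosome is bound by the Mre11a, Rad50 and Nbn complex, its ends are cut back to single strands, and Brca1, Palb2 and Brca2 prepare the strand for pairing with an intact copy. Fanconi proteins detect a replication fork stalled at a crosslink, where the core complex attaches ubiquitin to Fancd2 and Fanci. The kinases Atm and Atr signal the damage, chiefly through Chek2 and Chek1, and histone H2A.X, Mdc1 and Trp53bp1 mark the chromatin around a break. In mammary epithelium, inherited loss of BRCA1, BRCA2 or PALB2 function in humans is a known cause of breast cancer.

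The cells came from the line 23116 MT, derived from a mammary tumour of the Chaos3 mouse on the C3HeB/FeJ strain, a model with a mutated Mcm4 gene, which encodes part of the helicase that opens DNA for replication. The group labelled Low holds 2 libraries of that line, and the group labelled High holds 1 library each of the clones AB-C1 and AB-C2, which were transduced with a lentiviral vector for Arid1a, a subunit of the SWI/SNF chromatin remodelling complex. Both groups carry the tumour line's Chaos3 background. The labels name no empty vector for the Low cells, so Arid1a, transduction and the choosing of clones cannot be told apart, and each High library is another clone. Whether the Low duplicates were grown apart is not stated in the labels, so their spread may be technical. The spread of the High pair also holds any difference between the clones. The p-values between the groups therefore measure only the spread between these libraries. The table numbers the libraries within a group but does not say which is AB-C1 and which is AB-C2, so they are called High libraries 1 and 2, in the table's own order.

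The libraries held 13889856 and 28110812 fragments under the label Low and 16523077 and 24307249 under the label High. Levels below are fragment counts scaled to library size (CPM) with TMM factors, a method that assumes most genes are unchanged between libraries. Arid1a stood at 82.2 and 94.2 CPM under the label Low and at 49.8 and 58.3 CPM under the label High. Its level was therefore lower, not higher, under the label High (log2 fold change -0.71 ± 0.23 SE, edgeR adjusted p = 0.165), and every direction below is between libraries as labelled. Whether the vector's transcript was counted under the gene's name was not tested, nor was an exchange of the labels, which would turn every direction between the groups. Among the luminal epithelial markers listed, Krt8, Krt18, Epcam and Cdh1 were present in all libraries at 78.6 to 879 CPM. Krt19, Cldn3, Cldn4, Cldn7 and Gata3 stood at 17.1 to 184 CPM. The rest of the list was low, with Esr1 at 2.16 to 5.20 CPM and Foxa1 at 0.439 to 5.46 CPM. Elf5 was at 0 to 10.9 CPM, Prlr at 0 to 0.439 CPM and Pgr at 0 to 0.183 CPM. Between the groups the luminal list had a median log2 fold change of 1.11. Of its 12 tested markers 10 lay above 0, where 6783 of all 12987 tested genes did. At an unadjusted p under 0.05, 4 of the 12 were higher, where 9.92% of all tested genes were. By edgeR 0 of the 12 passed the threshold of an adjusted p under 0.05, where 2.47% of all tested genes did. The 8 basal markers had a median log2 fold change of 0.76, with 6 above 0 and 2 below. Cdh3 and Itga6 rose (edgeR adjusted p = 0.0491 and 0.0464). Krt14 stood at 973 and 614 CPM under the label Low and at 1271 and 2647 CPM under the label High. The other keratins of the basal list were low. Krt5 stood at 0.735 and 0.220 CPM under the label Low and at 0 and 1.02 CPM under the label High. Krt17 stood at 1.69 and 1.57 CPM under the label Low and at 0.584 and 1.67 CPM under the label High. Acta2 fell from 1320 and 1153 CPM under the label Low to 22.7 and 8.63 CPM under the label High (edgeR adjusted p = 0.00976). The 10 fibroblast markers summed to 6821 and 6187 CPM in the Low libraries and to 1225 and 473 CPM in the High libraries, led in the Low libraries by Col1a1 at 2521 and 2133 CPM. Both High libraries lay below both Low libraries in 6 of the 8 fibroblast markers tested, where 25.1% of all tested genes had that pattern. By edgeR 1 of the 8 (Fap, lower) passed the threshold, where 2.47% of all tested genes did. However, Dcn stood at 4.19 and 5.45 CPM under the label Low and 195 and 19.6 CPM under the label High. Pdgfra stood at 79.3 and 97.3 CPM under the label Low and 234 and 26.6 CPM under the label High. Leukocyte markers summed to 9.62 to 28.2 CPM, nearly all of it Csf1r, with Cd3e at 0 in every library. The share of these marker differences in the results below was not tested, and in bulk RNA fewer cells of a type and less RNA per cell cannot be told apart.

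Promoter sequence was searched for letters that transcription factors of the cell cycle are known to bind, since many repair genes are known as targets of E2F factors in S phase. RefSeq promoters of the build GRCm38.p6 were matched by symbol for 37 of the 49 genes, and the 250 bases before each start were read. The E2F letters searched were TTTCCCGC, TTTGGCGC, TTTGCCGC and TTTCGCGC, on both strands. They were found in 7 of the 37 genes (18.9%), Bard1, Brca2, Chek2, Fancg, Mdc1, Topbp1 and Xrcc6, against 2.16% of all 27025 genes with a promoter and 3.97% of the 9587 tested genes with one. The cell cycle homology region, known from genes of G2 and mitosis, was searched as TTTGAA and TTCGAA on both strands and found in 3 of the 37 (8.11%), Atr, Bard1 and Polq, against 14.2% of tested genes. The CCAAT box (CCAAT, both strands) was found in 20 (54.1%), against 40.9% of tested genes. A match describes the letters and is not evidence of binding.

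Promoters of 4 genes with E2F letters are shown because their genes had different patterns across the libraries: Bard1 differed between the clones, Mdc1 was lower in both High libraries, and Brca2 and Chek2 overlapped between the groups. Each is written 5′ to 3′ on the gene's strand, only bases before the annotated gene start are shown, and capitals mark matches to the letters above.
Bard1: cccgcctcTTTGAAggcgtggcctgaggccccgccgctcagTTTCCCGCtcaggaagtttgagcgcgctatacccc
Mdc1: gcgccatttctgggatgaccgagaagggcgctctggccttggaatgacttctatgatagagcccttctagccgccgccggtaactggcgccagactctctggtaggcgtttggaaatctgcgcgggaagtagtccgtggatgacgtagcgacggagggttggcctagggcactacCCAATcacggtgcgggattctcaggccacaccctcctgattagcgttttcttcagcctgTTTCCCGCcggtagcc
Brca2: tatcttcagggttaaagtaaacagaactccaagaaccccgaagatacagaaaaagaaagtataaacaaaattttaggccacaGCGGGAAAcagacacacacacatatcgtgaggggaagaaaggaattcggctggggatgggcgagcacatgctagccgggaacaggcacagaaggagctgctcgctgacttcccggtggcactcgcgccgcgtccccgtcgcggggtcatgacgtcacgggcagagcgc
Chek2: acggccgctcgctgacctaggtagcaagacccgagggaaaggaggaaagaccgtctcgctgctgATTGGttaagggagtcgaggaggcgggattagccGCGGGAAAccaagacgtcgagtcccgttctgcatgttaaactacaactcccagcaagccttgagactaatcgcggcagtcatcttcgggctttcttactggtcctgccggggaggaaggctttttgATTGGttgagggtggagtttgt
The stretch for Bard1 is chr1:71103147-71103222 on the minus strand, and for Mdc1 it is chr17:35841248-35841497 on the plus strand. The stretch for Brca2 is chr5:150522371-150522620 and for Chek2 chr5:110839733-110839978, both on the plus strand. In Bard1 the capitals mark a CHR match and then an E2F match. In Mdc1 they mark CCAAT and then E2F, in Brca2 an E2F match on the opposite strand, and in Chek2 an E2F match between CCAAT boxes, all 3 on the opposite strand.

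None of the 49 genes passed the threshold between the groups. With edgeR's quasi-likelihood test over 12987 genes, 0 of 49 had an adjusted p under 0.05, where 2.47% of all tested genes did. At an unadjusted p under 0.05, 5 of the 49 were lower under the label High, H2afx, Trp53bp1, Polq, Mdc1 and Exo1, where 8.16% of all tested genes were, and 0 of 49 were higher, where 9.92% of all tested genes were. DESeq2 called 1 of the 49, H2afx, lower, where it called 8.64% of all genes it tested, and limma-voom called 0, against 2.47%. Without High library 2 edgeR called 4 of the 49 (H2afx, Polq and Fance lower, Rad51c higher), against 18.6% of all genes tested. Without High library 1 it called H2afx alone, against 16.3%. In each of these fits the share of the 49 genes called was below the share over all genes. The median log2 fold change over the 49 genes was -0.12, with values from -1.02 to 0.71, and the median over all tested genes was 0.03. Without Low library 2 the median of the 49 was 0.10. A total of 28 genes lay below 0 and 21 above. In 16 of the 49 genes both High libraries lay below both Low libraries (background 25.1%), and in 9 both lay above (background 25.9%). With 2 libraries against 2, an exact permutation test of a single gene cannot give a p below 0.333.

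**Figure D1:**
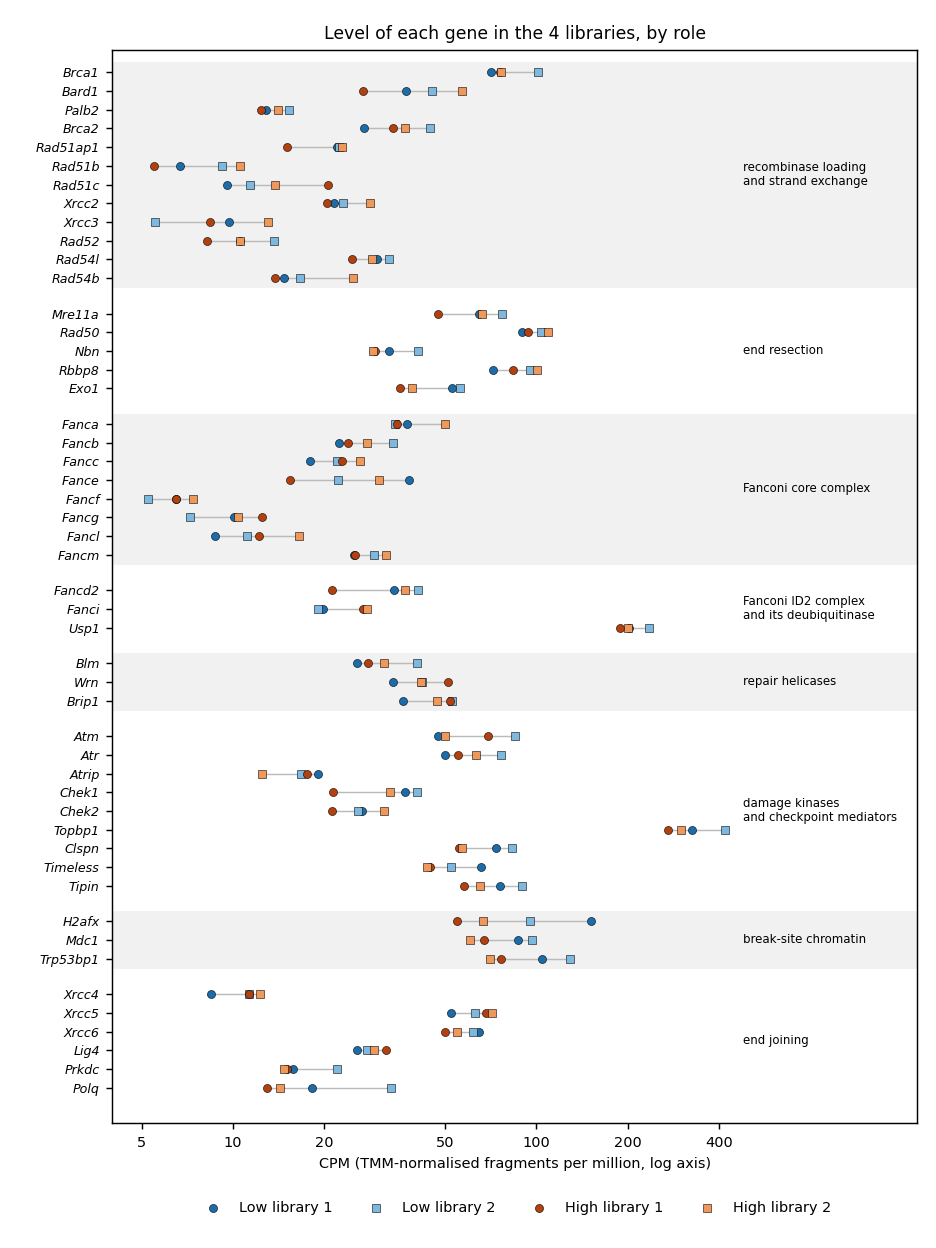
Level of each of the 49 genes in each library, in CPM on a log axis, grouped by role, with 1 point per library and the 2 groups in different colours. H2afx and Trp53bp1 show the High libraries to the left of both Low libraries, whereas Brca2 shows the High libraries between the Low ones.

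In all 3 genes of break-site chromatin both High libraries lay below both Low libraries (25.1% of all tested genes). Their median log2 fold change was -0.67. H2afx encodes histone H2A.X, the variant that is phosphorylated next to a break, and lies at chr9:44334694-44336077 on the plus strand in mm10. Its level was 151 and 95.1 CPM under the label Low and 54.7 and 66.9 CPM under the label High, 123 ± 39.4 against 60.8 ± 8.63 CPM (SD, n = 2 each). The groups did not overlap, and the Low libraries differed more from each other than the High ones did. Its log2 fold change was -1.02 ± 0.28 (SE, 95% interval -1.67 to -0.36), a 2.02-fold lower level, with an edgeR unadjusted p of 0.00752 and an adjusted p of 0.118. DESeq2 gave it an adjusted p of 0.0257, and edgeR without the low-count filter also called it, as 1 of the 49 where 4.88% of all genes tested passed. Over all 15 alternatives its adjusted p ran from 0.00155 to 0.727 and its log2 fold change from -1.32 to -0.65.

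Trp53bp1, which binds modified histones at breaks and restrains resection, stood at 104 and 129 CPM under the label Low and at 76.5 and 70.1 CPM under the label High. It lies at chr2:121193281-121271407 on the minus strand and overlaps Tubgcp4 on the other strand, so its count is uncertain unless strand was used in counting. The groups did not overlap, and the log2 fold change was -0.67 ± 0.22 (SE, 95% interval -1.19 to -0.14, edgeR adjusted p = 0.183). Mdc1, the adaptor that reads phosphorylated H2A.X, stood at 87.0 and 96.8 CPM under the label Low and at 67.1 and 60.3 CPM under the label High. Each pair was close, and the log2 fold change was -0.53 ± 0.22 (SE, 95% interval -1.03 to -0.03, edgeR adjusted p = 0.257).

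Among the 9 damage kinases and checkpoint mediators, 8 lay below 0 and 1 above, with a median log2 fold change of -0.37. In 5 of the 9, Chek1, Topbp1, Clspn, Timeless and Tipin, both High libraries lay below both Low libraries (25.1% of all tested genes). The apical kinases did not share that pattern. Atm, activated by breaks, stood at 47.5 and 84.8 CPM under the label Low and at 69.5 and 49.95 CPM under the label High. Atr, activated by single-stranded DNA, stood at 50.1 and 76.4 CPM under the label Low and at 55.3 and 63.2 CPM under the label High. In both, the High libraries lay between the Low ones, and the 95% intervals of the log2 fold change ran from -0.93 to 0.63 for Atm and from -0.73 to 0.53 for Atr.

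Chek1, the kinase downstream of Atr, stood at 36.9 and 40.2 CPM under the label Low and at 21.4 and 32.8 CPM under the label High. High library 1 was the lowest, and the log2 fold change was -0.51 ± 0.29 (SE, edgeR adjusted p = 0.412). Topbp1, which activates Atr and was the gene with the most fragments among the 49, stood at 325 and 417 CPM under the label Low and at 272 and 301 CPM under the label High, with a log2 fold change of -0.37 ± 0.23 (SE, edgeR adjusted p = 0.449). Clspn, which brings Chek1 to Atr, stood at 73.5 and 83.0 CPM under the label Low and at 55.6 and 56.7 CPM under the label High, with a log2 fold change of -0.48 ± 0.22 (SE, edgeR adjusted p = 0.306). The groups of Topbp1 and Clspn did not overlap. Timeless and Tipin, partners in the complex that travels with the fork, had log2 fold changes of -0.42 and -0.43. Atrip, the partner of Atr, had a log2 fold change of -0.26, and Chek2, the kinase downstream of Atm, had one of 0.01.

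**Figure D2:**
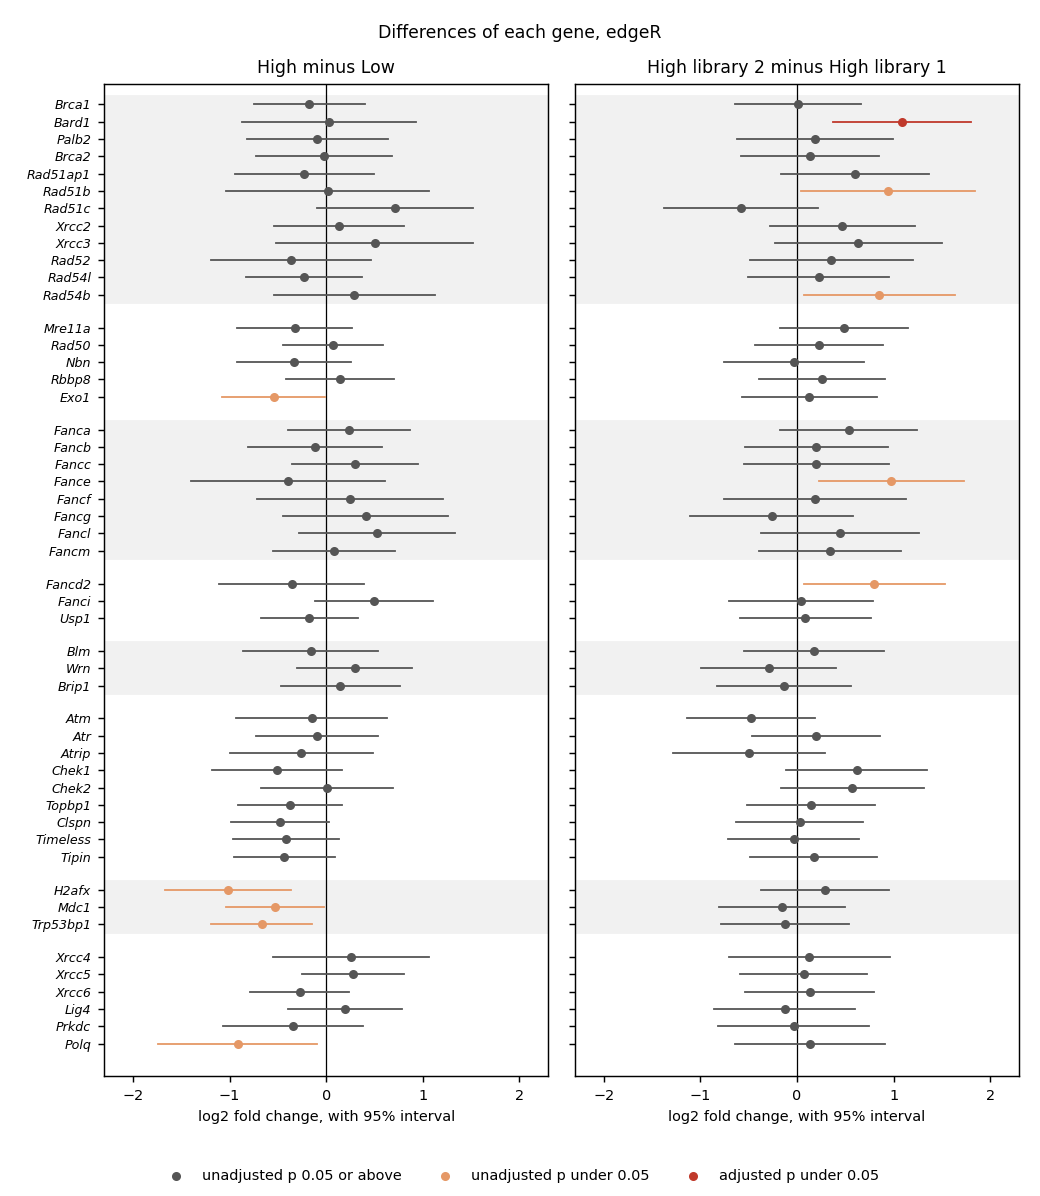
Log2 fold change of each of the 49 genes between the libraries labelled High and Low (left) and between High library 2 and High library 1 (right), with bars for 95% intervals from edgeR. H2afx lies furthest left in the first panel at -1.02, and Bard1 furthest right in the second at 1.09.

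The 12 genes of recombinase loading and strand exchange were split, 6 below 0 and 6 above, with a median log2 fold change of -0.00. Brca1, the ubiquitin ligase subunit that promotes resection, stood at 71.0 and 101 CPM under the label Low and at 76.0 and 76.7 CPM under the label High. Brca2, which acts on the resected single strands, stood at 27.1 and 44.7 CPM under the label Low and at 33.8 and 37.0 CPM under the label High. In both genes the High libraries lay between the Low libraries. The 95% interval of the log2 fold change ran from -0.74 to 0.40 for Brca1 and from -0.73 to 0.68 for Brca2.

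The genes Rad51b, Rad51c, Xrcc2 and Xrcc3 encode related proteins that act together in recombination. Rad51c had the most positive log2 fold change of the 49 genes, 0.71 ± 0.35 (SE, 95% interval -0.09 to 1.52, edgeR adjusted p = 0.340). Its level was 9.55 and 11.4 CPM under the label Low and 20.6 and 13.8 CPM under the label High, so the groups did not overlap and High library 1 stood apart. Xrcc3 stood at 9.70 and 5.52 CPM under the label Low and at 8.41 and 13.1 CPM under the label High. Those groups overlapped, and the log2 fold change was 0.50 ± 0.44 (SE, edgeR adjusted p = 0.592). Xrcc2 and Rad51b had log2 fold changes of 0.13 and 0.01. Palb2, the bridge between Brca1 and Brca2, had one of -0.09, and Rad51ap1, a cofactor of strand pairing, one of -0.23. Rad52, an annealing protein, and Rad54l, a translocase of strand exchange, were lower in both High libraries than in either Low library. Their log2 fold changes were -0.37 and -0.23. That pattern held in 2 of the 12 genes (16.7%), a smaller share than the 25.1% of all tested genes. Both High libraries lay above both Low libraries in 1 of the 12, Rad51c (8.33%), against 25.9% of all tested genes. Rad54b, a relative of Rad54l, had a log2 fold change of 0.29.

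Among the 5 end resection genes, the median log2 fold change was -0.32, and 3 lay below 0. Exo1, the exonuclease that extends resection, lies at chr1:175880581-175913489 on the plus strand. It stood at 52.5 and 55.9 CPM under the label Low and at 35.6 and 38.9 CPM under the label High, 54.2 ± 2.39 against 37.3 ± 2.295 CPM (SD, n = 2 each). The difference was wider than either pair's spread, with a log2 fold change of -0.54 ± 0.23 (SE, 95% interval -1.07 to -0.01, edgeR adjusted p = 0.271). Of the complex that first binds the ends, Mre11a and Nbn had log2 fold changes of -0.32 and -0.33 and Rad50 one of 0.07. Rbbp8, which starts resection with that complex, had one of 0.14.

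The 8 genes of the Fanconi core complex had a median log2 fold change of 0.24, with 6 above 0 and 2 below. In 4 of them, Fancc, Fancf, Fancg and Fancl, both High libraries lay above both Low libraries (25.9% of all tested genes), and in none of the 8 did both lie below. Fancl, the subunit that transfers ubiquitin, stood at 8.74 and 11.1 CPM under the label Low and at 12.2 and 16.5 CPM under the label High, with a log2 fold change of 0.53 ± 0.35 (SE, edgeR adjusted p = 0.475). Fance, the subunit that contacts Fancd2, stood at 38.1 and 22.1 CPM under the label Low and at 15.4 and 30.2 CPM under the label High. Its groups overlapped, and its log2 fold change was -0.40 ± 0.42 (SE). Fanca, Fancb and Fancm, the last a translocase that recruits the complex to the fork, had log2 fold changes of 0.24, -0.12 and 0.08. The genes Fanca, Fancc, Fancf and Fancl each overlap another protein-coding gene in the annotation, and without the strand setting of the counting their values are uncertain.

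The substrates of the core complex had log2 fold changes of opposite sign, and the difference between them was not tested. Fancd2 stood at 34.0 and 40.6 CPM under the label Low and at 21.3 and 37.0 CPM under the label High, where High library 1 alone was below both Low libraries, and its log2 fold change was -0.36 ± 0.32 (SE, 95% interval -1.11 to 0.39). Fanci, its partner in the clamp, stood at 19.8 and 19.0 CPM under the label Low and at 26.9 and 27.7 CPM under the label High. Both pairs of Fanci were tight, and its log2 fold change was 0.49 ± 0.26 (SE, 95% interval -0.12 to 1.10, edgeR adjusted p = 0.379). Fancd2 and Fanci each overlap another protein-coding gene. Usp1, which removes the ubiquitin from Fancd2, had a log2 fold change of -0.17. Of the repair helicases, Blm, which resolves joined DNA molecules, had a log2 fold change of -0.16, Wrn, a relative of Blm, one of 0.30, and Brip1, a partner of Brca1, one of 0.15. In all 3 helicases the groups overlapped.

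Of the 6 end joining genes, 3 lay below 0 and 3 above, and in none of them did the groups overlap, though for Xrcc4 the nearest libraries were alike at 11.3 CPM. Over all tested genes, 25.1% had both High libraries below both Low ones and 25.9% had both above. Polq, the polymerase of the end joining route that uses short matching stretches, lies at chr16:37011786-37095417 on the plus strand. Its level was 18.2 and 33.1 CPM under the label Low and 12.97 and 14.2 CPM under the label High. The Low libraries were far apart, and the log2 fold change was -0.92 ± 0.36 (SE, 95% interval -1.75 to -0.09, edgeR adjusted p = 0.237). Without Low library 2 it was -0.43. Prkdc, the kinase recruited by the Ku proteins, stood at 15.7 and 22.0 CPM under the label Low and at 15.1 and 14.7 CPM under the label High, with a log2 fold change of -0.34 ± 0.31 (SE, edgeR adjusted p = 0.609). The nearer Low library was separated from the nearer High library by less than the spread of the Low pair. Of the Ku subunits, Xrcc5 had a log2 fold change of 0.28 (95% interval -0.25 to 0.81) and Xrcc6 one of -0.28 (95% interval -0.79 to 0.24). The difference between the subunits was not tested. The ligase Lig4 and its partner Xrcc4 had log2 fold changes of 0.19 and 0.25. Xrcc4 and Xrcc6 each overlap another protein-coding gene on the other strand, so their counts are uncertain unless strand was used in counting.

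Prkdc starts at chr16:15637866 on the plus strand, and its neighbour Mcm4, the gene mutated in the Chaos3 mouse, ends its span at chr16:15637400 and runs the other way from there, with 465 bases between them. Mcm4 stood at 226 and 250.3 CPM under the label Low and at 143 and 158 CPM under the label High, with a log2 fold change of -0.66 ± 0.22 (SE, edgeR adjusted p = 0.171). The interval for Prkdc, -1.07 to 0.38, holds both that value and 0, and the difference between the genes was not tested.

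Levels of different genes can be set side by side only per length, as FPKM (fragments scaled by transcript length and by depth). On that scale the 49 genes had a median of 7.84, from 1.34 to 78.7 as means over the 4 libraries, and the tested genes had a median of 11.1. H2afx was highest, at 129 and 81.6 FPKM under the label Low and 46.5 and 57.0 FPKM under the label High. Tipin followed at 74.8 and 88.4 FPKM under the label Low and 56.4 and 63.8 FPKM under the label High, and Topbp1 at 65.8 and 84.4 FPKM under the label Low and 54.5 and 60.5 FPKM under the label High. The means of these genes were 78.7, 70.9 and 66.3 FPKM, and their ranges over libraries overlapped, although Tipin was above Topbp1 in each library. At the low end, Prkdc stood at 1.25 and 1.75 FPKM under the label Low and 1.19 and 1.16 FPKM under the label High, and Polq at 2.27 and 4.04 FPKM under the label Low and 1.53 and 1.76 FPKM under the label High. Brca2, the next from the bottom, stood at 2.61 and 4.26 FPKM under the label Low and 3.22 and 3.52 FPKM under the label High. Prkdc was lower than Polq and Brca2 in each library, and Polq was lower than Brca2 in each library although their ranges over libraries overlapped.

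Other genes of the same pathways gave a similar count. Of 88 genes listed, 84 were in the table and 82 were tested, and 0 of 82 passed the threshold between the groups by edgeR, against 2.47% of all tested genes. Their median log2 fold change was -0.09, with 47 below 0 and 35 above. At an unadjusted p under 0.05, 3 were lower, where 8.16% of all tested genes were, and 3 were higher, where 9.92% were. The lower ones were Rtel1, a helicase that dismantles recombination intermediates (log2 fold change -0.78), Recql4, a RecQ helicase (-1.01), and Cdc25a, the phosphatase that the checkpoint targets (-0.62). The higher ones were Stra13, the older symbol of a Fanconi accessory protein (0.92), Bre, a subunit of the Brca1-A complex (0.53), and Polm, a polymerase of end joining (0.76). Recql4 stood at 36.1 and 26.05 CPM under the label Low and at 12.9 and 17.8 CPM under the label High, and Stra13 at 8.52 and 7.46 CPM under the label Low and at 13.3 and 16.8 CPM under the label High. Neither gene's groups overlapped. All 4 genes of the list of RPA subunits and resection helpers had both High libraries below both Low libraries. Their median log2 fold change was -0.27. Over all 82 other pathway genes tested, 25 had that pattern (30.5%), where 25.1% of all tested genes did.

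**Figure D3:**
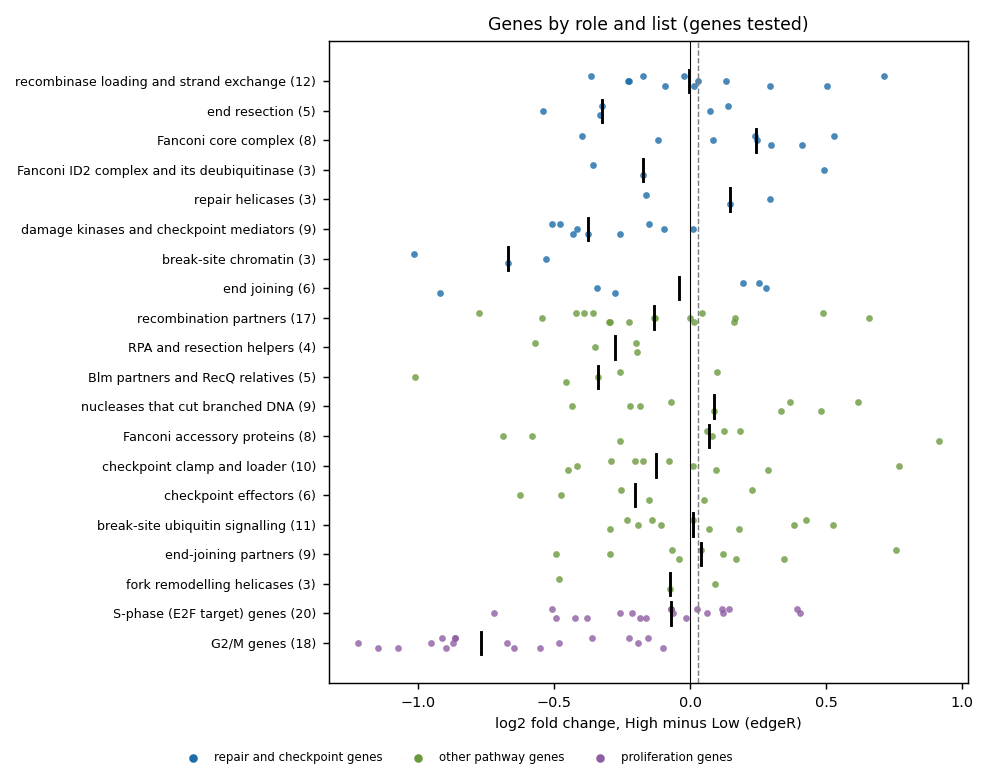
Log2 fold change between the libraries labelled High and Low (edgeR) of each tested gene, by role or list, with the number tested in brackets, a black bar for the group's median and a dashed line for the median of all tested genes. Break-site chromatin lies at a median of -0.67 and the G2/M genes at -0.77, while the Fanconi core complex lies at 0.24.

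Proliferation genes are given beside the repair genes because many repair genes vary with the cell cycle. Of 18 genes of G2 and mitosis, all lay below 0 under the label High, with a median log2 fold change of -0.77, and 1, Tpx2, passed the threshold by edgeR (log2 fold change -1.22 ± 0.22 SE, adjusted p = 0.0341). At an unadjusted p under 0.05, 12 of the 18 were lower (8.16% of all tested genes), and in 13 both High libraries lay below both Low libraries (25.1%). Their summed level was 4331 and 4975 CPM under the label Low and 2983 and 3355 CPM under the label High. Of 20 S-phase genes, 0 passed, 13 lay below 0 and 7 above, with a median of -0.07, and 1 was lower at an unadjusted p under 0.05. Their summed level was 3349 and 3201 CPM under the label Low and 2759 and 3349 CPM under the label High. The part of these differences in the values of the 49 genes was not tested.

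Between the libraries of the clones, Bard1 was the only one of the 49 genes to pass the threshold, where 10.9% of all tested genes passed. Bard1, the obligate partner of Brca1 in its ubiquitin ligase, lies at chr1:71027498-71103146 on the minus strand. It stood at 26.8 CPM in High library 1 and 57.0 CPM in High library 2, and at 37.1 and 45.1 CPM in the Low libraries. Both Low libraries lay between the High libraries. The difference was 1.09 ± 0.36 on the log2 scale (SE, 95% interval 0.37 to 1.80), or 2.13-fold, with an edgeR adjusted p of 0.0293. This fit used 3 groups, so the Low pair alone gave the spread, and the lone library of each clone is assumed to vary like the Low duplicates, which may be technical. The call therefore compares 2 libraries and has no replicate of either clone behind it. The biological coefficient of variation was 17.3% for the Low pair and 42.4% for the High pair. With offsets for GC content 4 of the 49 genes passed (Bard1, Rad54b, Fancd2 and Chek1), against 17.4% of all tested genes. With offsets for transcript length 2 did (Bard1 and Fancd2), against 13.6%.

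For Brca1 the difference between the libraries of the clones was 0.01 ± 0.33 (SE, 95% interval -0.64 to 0.66). Whether Brca1 and Bard1 differed from each other in this was not tested. At an unadjusted p under 0.05, 5 of the 49 genes differed, where 21.1% of all tested genes did. The next in size after Bard1 were Fance at 0.98 (edgeR adjusted p = 0.0825), Rad51b at 0.94 (adjusted p = 0.210), Rad54b at 0.85 (adjusted p = 0.179) and Fancd2 at 0.80 (adjusted p = 0.177). Rad51b stood at 5.49 and 10.5 CPM in High libraries 1 and 2, and at 6.69 and 9.18 CPM in the Low libraries. Rad54b stood at 13.7 and 24.8 CPM in High libraries 1 and 2, and at 14.8 and 16.7 CPM in the Low libraries. For Rad51b both Low libraries lay between the High libraries, for Fance and Fancd2 1 of them did and the other lay above, and for Rad54b both lay close to High library 1.

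High library 2 was above High library 1 in 37 of the 49 genes, against 51.1% of all tested genes, and below in 12. The median difference was 0.18, where the median over all tested genes was 0.02. The 12 genes of recombinase loading and strand exchange had a median of 0.41, with 11 above 0, the exception being Rad51c at -0.58. The 8 Fanconi core genes had a median of 0.27, with 7 above 0, the exception being Fancg at -0.26. The 3 genes of break-site chromatin had a median of -0.13. Of the 82 other pathway genes tested, 58 were above 0 and 24 below, with a median of 0.24. The largest differences among them were those of Rmi2 and Rhno1, both higher in High library 2. Rmi2, a partner of Blm, stood at 2.86 and 10.3 CPM in High libraries 1 and 2 (difference 1.85). Rhno1, a partner of the checkpoint clamp, stood at 22.1 and 48.2 CPM (difference 1.13). The S-phase genes had a median difference of 0.37, with 17 of 20 above 0, and the luminal markers summed to 1017 and 2615 CPM in High libraries 1 and 2. Their part in the clone difference was not tested.

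The duplicates labelled Low also differed in a way that touched these genes. Low library 2 was above Low library 1 at the median of the 49 genes by 0.25 on the log2 scale, while the median over the tested genes was -0.00. Across the 49 genes this difference fell with the GC content of the transcript, with a Pearson correlation of -0.81 and a Spearman correlation of -0.66, and it rose with the log2 of transcript length, at 0.57 and 0.49. Over 12210 tested genes the correlations with GC content were -0.54 and -0.61. These are descriptions across genes that share the same libraries, and genes are not independent replicates. Atm, Brca2 and Polq were among the genes higher in Low library 2, and H2afx, with a GC content of 62.3%, was lower there. Between the High libraries the correlations of the 49 genes with GC content were 0.12 and 0.05, and for the difference between the groups they were -0.18 and -0.18. With offsets for GC content H2afx had a log2 fold change of -1.06 and an edgeR adjusted p of 0.0620.

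**Figure D4:**
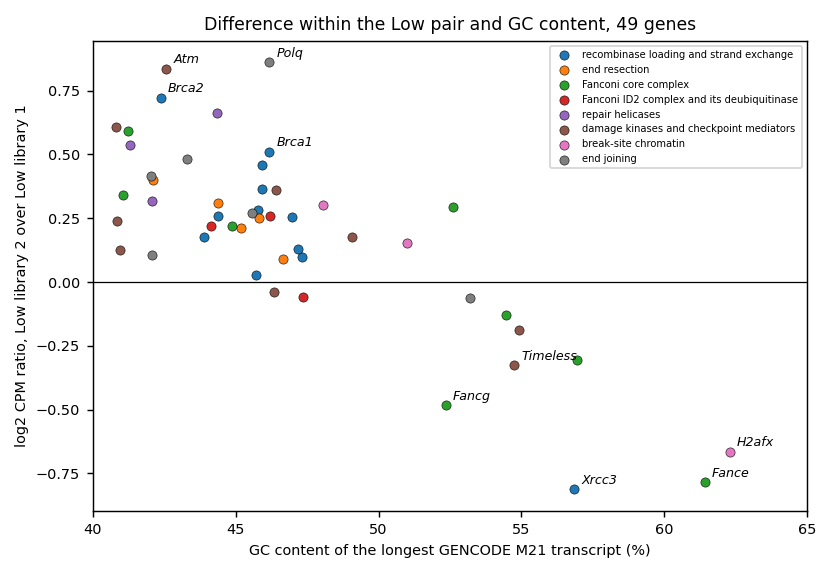
Log2 ratio of Low library 2 to Low library 1 of each of the 49 genes against the GC content of its transcript in percent, 1 point per gene. The points fall from left to right (Pearson correlation -0.81), with H2afx at a GC content of 62.3% and below 0.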

How the data were processed

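RNA was measured in 4 libraries, 2 per group, in 1 deposited table, whose condition names give the group, while nothing gives which sample a library number is. The submitters' processing notes name Cuffdiff 2.2.1, TopHat2 2.0.13, cutadapt 1.5 and the genome build mm10. How strand was used in counting, which gene models were counted and how messenger RNA was selected is not given in the sources used here. Per the file headers, the deposited table gives for each gene and library an estimated count of fragments, a signal scaled between libraries and FPKM. Of the estimated counts, 99.18% were whole within 1e-06, and all were rounded before testing. The deposited signal was not tested.

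Genes were filtered with edgeR 4.0.16 (minimum count 10), which left 12987 genes with at least 99.91% of each library's fragments. They were scaled by TMM and tested two-sided with the robust quasi-likelihood test, with Benjamini-Hochberg adjustment over all tested genes at 0.05, in R 4.3.3. The clones were compared in a fit of 3 groups. Intervals have a confidence of 95%. Alternatives used DESeq2 1.42.0, limma 3.58.1 (also on log2 of FPKM plus 1 or 0.1), other scalings, offsets for GC content or transcript length, a replicate block and leaving out libraries. The code was tested on simulated data. The biological coefficient of variation was 32.2% in the fit between the groups, 17.3% for the Low pair and 42.4% for the High pair. At 88 fragments or more per gene and library, the spread between libraries limits precision more than depth.

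The 49 genes and the other lists were chosen with earlier results of these data known. Values in every library are given for genes past a threshold or at an unadjusted p under 0.05, the 3 most positive and 3 most negative between the groups, the 5 furthest apart between the clones, the 3 highest and lowest by FPKM, and 8 hub genes (Brca1, Brca2, Fancd2, Atm, Atr, Chek1, Prkdc, H2afx). Others named were chosen after their values were seen. Coordinates are from GENCODE M21 on GRCm38, the same assembly as mm10, matched by symbol. In that annotation 14 of the 49 genes overlap another protein-coding gene. They are Xrcc3, Xrcc4, Xrcc6, Rad54l, Rad54b, Mre11a, Atrip, Trp53bp1, Fanca, Fancc, Fancf, Fancl, Fancd2 and Fanci. Without the strand setting of the counting their values are uncertain. For Rad54b and Atrip the overlapping coding gene lies on the same strand.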

Additional observations from a re-analysis of the deposited data

Results flagged for a closer look

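Bard1 stood out because the libraries of the clones lay apart while the difference between the groups was near 0. High library 2 was above High library 1 by 1.09 on the log2 scale (26.8 and 57.0 CPM, edgeR adjusted p = 0.0293 in the fit of 3 groups), and the log2 fold change between the groups was 0.03 ± 0.38 (SE). Each clone is 1 library, so clone and library cannot be told apart, and the spread comes from the Low pair alone. The 6 alternatives run use the same libraries and the same spread, so their agreement is no independent support. They gave differences of 1.08 to 1.21 and adjusted p-values of 0.00241 to 0.0492.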

How the results depend on the processing

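Between the groups, 15 alternatives were run, and 30 of the 49 genes kept their direction in all of them. Of all tested genes 321 passed by edgeR, 1162 by DESeq2, 814 with no low-count filter, 469 with a replicate block, 94 with the block's numbers crossed and 156 with GC offsets. Leaving out 1 library gave 0 to 2475 calls: 0 without Low library 1 or Low library 2, 2193 without High library 1 and 2475 without High library 2. Of the 49 genes 1 passed by DESeq2, 1 with no filter and 0 to 4 when 1 library was left out. The gene called by DESeq2 and with no filter was H2afx (lower). Without High library 1, 1 passed (H2afx), and without High library 2, 4 passed: H2afx, Polq and Fance lower and Rad51c higher (0 to 3 lower and 0 to 1 higher over the libraries left out). The lone library is then assumed to vary like the other group's pair. The median of the 49 genes ran from -0.24 without Low library 1 to 0.10 without Low library 2, so its sign rests on that library. Same-numbered libraries had deviations correlated at -0.21, and the numbers are not stated to pair libraries. The replicate block called 0 of the 49, as did the crossed pairing. The replicate block turned Bard1 to -0.0622, Brca2 to 0.0199, Rad51b to -0.0377 and Chek2 to -0.0168, and the crossed pairing turned them to -0.0646, 0.0197, -0.0424 and -0.0188.

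The other changes of sign, apart from leaving out a library, were of genes near 0. DESeq2 gave Chek2 -0.00231. Limma-voom gave Bard1 -0.0502 and Rad51b -0.0378. Limma on log2(FPKM + 1) gave Bard1 -0.0570, Brca2 0.00370, Rad51b -0.0382 and Chek2 -0.0253, and with 0.1 added it gave -0.0739, 0.0129, -0.0549 and -0.0290. Upper quartile scaling gave Brca2 0.0252, and GC offsets gave it 0.0395. Length offsets gave Brca2 0.14, Rad51b -0.0117, Atr 0.0143 and Chek2 -0.00498. Leaving out 1 library moved Bard1 from -0.63 to 0.47, Rad51b from -0.55 to 0.40, Rad50 from -0.0499 to 0.18, Rbbp8 from -0.0434 to 0.35, Fance from -0.97 to 0.0442, Fancm from -0.10 to 0.25, Brip1 from -0.0948 to 0.43, Brca1 from -0.40 to 0.0964, Palb2 from -0.21 to 0.0336, Brca2 from -0.34 to 0.38, Fancb from -0.38 to 0.20, Blm from -0.45 to 0.20, Atm from -0.51 to 0.32, Atr from -0.37 to 0.23, Chek2 from -0.31 to 0.27, Rad51ap1 from -0.56 to 0.0461, Xrcc2 from -0.13 to 0.35, Rad54b from -0.21 to 0.66 and Fanca from -0.0603 to 0.49. The cause of these changes was not tested.

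Between the clones, length offsets called 2 of the 49 genes (Bard1 and Fancd2) and GC offsets 4 (Bard1, Rad54b, Fancd2 and Chek1), all higher in High library 2. GC offsets called 2263 of all tested genes where the fit without them called 1419. The crossed pairing and the offsets for GC content and length were chosen after seeing the data. Levels from CPM over the effective length were not run, because that column is blank for every gene. With 2 libraries a group, only the spread between these libraries was measured. The lowest count of the 49 genes was 88 fragments, for Fancf.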
